A study of Litchi chinensis with 30 samples.

Results

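The calcium sensing and transport genes described here were 253 of the 37234 genes in a litchi (Litchi chinensis) expression table. They were the rows whose Swiss-Prot description names a calcium-dependent protein kinase, a CDPK-related kinase, calmodulin, a CML calcium-binding protein, a calcium-transporting ATPase, a cyclic nucleotide-gated ion channel or a glutamate receptor, with capital letters as in those descriptions. Each gene carried the name of its closest Swiss-Prot entry, which came from Arabidopsis for 232 members and from other plants for 21. RNA was sequenced from whole flowers of the cultivar Feizixiao in 30 libraries, 3 for each of 10 groups. Functionally female flowers, which keep rudimentary stamens, gave the groups F1 to F5, and functionally male flowers, which keep a rudimentary pistil, gave M1 to M5. Stages 1 to 3 were buds of increasing size, flowers at stage 4 were partly open and those at stage 5 were in full bloom. The labels give no treatment, and groups were compared between the sexes at each stage and between stages within each sex. Gene identifiers are given without the ending .gene, and those of genes that the authors added are shortened to newGene with their number.

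Calcium entering the plant cytosol acts as a signal that is read by several protein families. Calmodulin and the calmodulin-like CML proteins bind calcium and then act on other proteins, whereas calcium-dependent protein kinases (CPK) carry the sensor and the kinase in a single chain. Cyclic nucleotide-gated channels (CNGC) and glutamate receptor-like channels (GLR) let cations in, and calcium-transporting ATPases of the ACA and ECA types pump calcium out of the cytosol. In Arabidopsis, a calcium gradient at the tip guides the growing pollen tube, and CPK17, CPK20, CPK24, CNGC18 and ACA9 are known from pollen.

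Library totals ranged from 27433038 to 43760285 counts, and the M5 libraries had the lowest scaling factors, 0.77 to 0.81. Pearson's r of log expression, taken across genes that are not independent replicates, averaged 0.954 within groups and 0.882 between groups. The 3 stamen and petal identity markers had mean sums between 213.7 and 729.2 FPKM (a fragment count scaled for transcript length and library depth) in the 10 groups. The sums were 312.8 FPKM in F4 and 729.2 FPKM in M4, and 213.7 FPKM in F5 and 397.8 FPKM in M5. At stage 5 the single markers went both ways. PMADS 2 averaged 62.7 FPKM in F5 and 187.9 FPKM in M5. Of the DEFICIENS genes, LITCHI006530.m1 averaged 123.2 and 208.7 FPKM, and LITCHI010203.m1 averaged 27.8 and 1.20 FPKM, in that order. The 4 carpel and ovule markers went both ways in female flowers of stage 5, where 2 were called higher and 1 was called lower: they summed to 172.8 to 294.5 FPKM in F5 and 416.8 to 458.4 FPKM in M5, mostly from CRABS CLAW with means of 202.7 FPKM in F5 and 430.3 FPKM in M5, whereas AGL11 averaged 13.0 FPKM in F5 and 0.389 FPKM in M5. Of 15 pollen markers, 1 LAT52 gene had no count, and of the 14 tested 11 were lower in female flowers at stage 4 and 11 at stage 5, and 0 were higher. Their summed level was 390.5 to 496.1 FPKM in F5 and 532.9 to 691.8 FPKM in M5, with a pollen-specific protein C13 gene alone making up 53.0% of the F5 mean sum and 19.3% of the M5 mean sum. Of the 17 leaf and green tissue markers tested, 13 were higher and 1 was lower in female flowers at stage 5. The part of these tissue differences in the results was not tested, and in whole flowers fewer cells of a type and less RNA per cell cannot be told apart.

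Of the 253 members, 27 had no count in any library, 181 passed the filter on low counts and 72 did not. The 72 untested members reached at most 0.622 FPKM as a group mean. A group mean of 1 FPKM was reached by 146 members, 10 FPKM by 85 and 100 FPKM by 7. Together the members summed to 2056 ± 179 FPKM in F5 and 2691 ± 19.3 FPKM in F1, and to 1911 ± 3.11 FPKM in M5 and 2983 ± 44.6 FPKM in M1 (SD, n = 3 each). Summed FPKM values, here and elsewhere, lack the scaling factors used in the tests, and the low factors of M5 would raise its sums beside other groups. A gene was called with edgeR's quasi-likelihood test at a false discovery rate (FDR) below 0.01 and a change of at least 2-fold. By this rule 107 tested members were called in at least 1 of 16 comparisons and 74 in none. The matching count over all tested genes was not made, so these counts do not set the members apart. Between stages 5 and 1 of male flowers alone, 36.8% of all tested genes were called.

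At stage 1, 0 members were called between female and male flowers with edgeR, beside 1.32% of all tested genes (0.402% higher and 0.923% lower), and at stage 2 again 0, beside 0.535% (0.194% higher and 0.341% lower). An unadjusted edgeR p below 0.05 was reached by 46 members at each of these stages, and the calls of DESeq2 were 4 at stage 1 and 0 at stage 2. The share of all tested genes with such a p was not counted, so the 46 do not set the members apart. At stage 3, 1 member was called, the channel gene CNGC11, beside 0.761% of all genes (0.348% higher and 0.413% lower). At stage 4, 7 members were higher and 20 lower in female flowers, or 14.9% of those tested, beside 16.9% of all genes (9.55% higher and 7.4% lower). At stage 5, 22 were higher and 22 lower, or 24.3%, beside 29.2% of all genes (17.6% higher and 11.6% lower). The median log2 fold change of the members was -0.23 at stage 4 and -0.15 at stage 5, against -0.02 and 0.03 over all tested genes. Scaling by library totals alone moved the median of all genes at stage 5 to 0.50 and the split of called members to 35 higher and 9 lower, and at stage 4 the split became 13 higher and 16 lower, with no called member changing direction. At both late stages, 6 of the members higher in female flowers and 11 of those lower were called, and 27 were called at stage 5 only. Such combined counts over all tested genes were not made. Counts by class at stages 4 and 5 below stand beside these shares of all genes, and no class was tested against them.

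**Figure D1:**
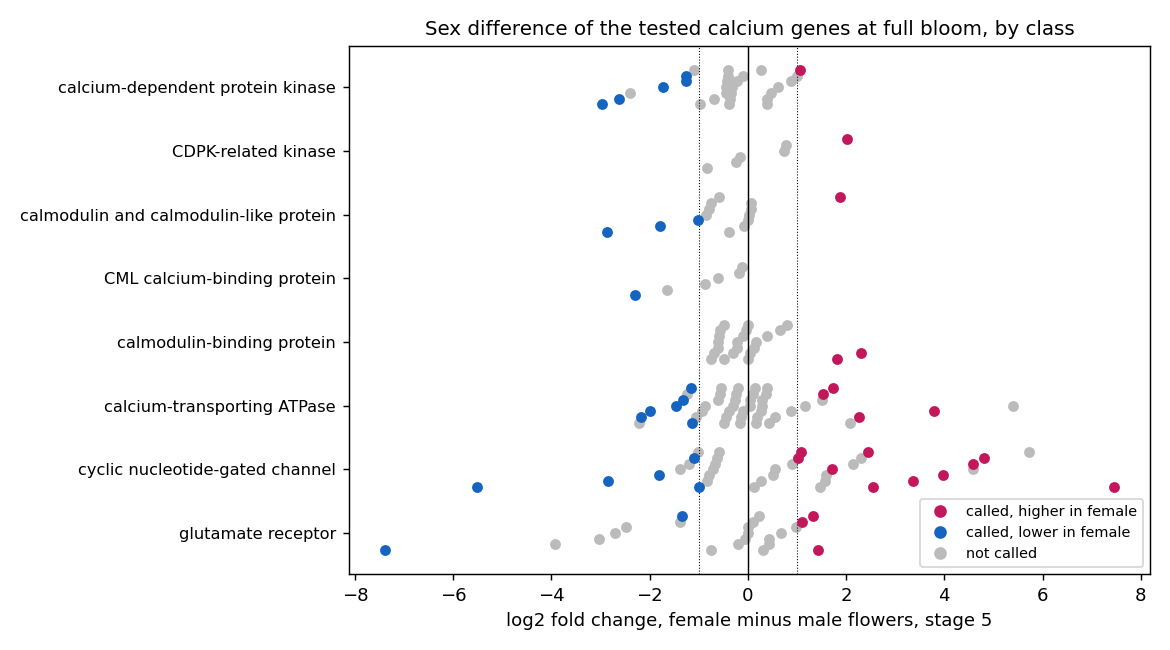
Log2 fold change, female minus male flowers, of the 181 tested members at stage 5, each point a gene, in rows by class. Dotted lines mark a 2-fold difference; the 22 members called higher in female flowers are red, the 22 called lower are blue and the rest grey.

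Calcium-dependent protein kinases and their relatives, which phosphorylate target proteins when calcium binds, numbered 36 CPK members with 28 tested and 15 CDPK-related kinases (CRK) with 6 tested. Of the CPK members, 1 was higher and 5 were lower in female flowers at stage 5, and 1 was higher and 4 were lower at stage 4. The most abundant, CPK4 (LITCHI002195.m1), had 48.5, 51.0 and 44.3 FPKM in F5 and 43.5, 47.0 and 47.3 FPKM in M5. These ranges overlapped, and the gene was called in no comparison.

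The largest difference among the kinases was in CPK17 (LITCHI023733.m1), with 3.15, 1.26 and 3.65 FPKM in F5 and 15.3, 10.7 and 19.4 FPKM in M5. All F5 values lay below all M5 values, and the log2 fold change was -2.97 (SE 0.68, edgeR FDR 9.6e-04). At stage 4 it had 0.349, 0.393 and 0.135 FPKM in female flowers and 1.94, 3.89 and 4.97 FPKM in male flowers (log2 fold change -3.83, SE 0.73). The gene was near 0 in buds and had 0 counts in all 6 stage 2 libraries. CPK24 (LITCHI015851.m1) had the same form, with 3.46, 0.990 and 3.08 FPKM in F5 and 12.6, 8.10 and 12.7 FPKM in M5, which did not overlap (log2 fold change -2.62, SE 0.58, edgeR FDR 4.8e-04). In both genes the second F5 library was the lowest of the 3, and in the male flowers stage 5 exceeded stage 1 by a log2 fold change of 5.80 (SE 0.79) for CPK17 and 5.87 (SE 0.69) for CPK24. Both also rose between stages 1 and 5 in female flowers, by 3.66 (SE 0.74) and 3.18 (SE 0.62) on the log2 scale. Another gene named CPK17 (LITCHI022947.m1) differed the other way at stage 4, with 13.4, 11.6 and 10.9 FPKM in F4 and 4.39, 4.08 and 4.53 FPKM in M4. Its log2 fold change there was 1.25 (SE 0.25), and it was not called at stage 5. A further gene of this name (LITCHI009269.m1) was abundant in buds, with means of 33.6 FPKM in F2 and 38.8 FPKM in M2. The pollen markers moved with LITCHI023733.m1 and CPK24, with 11 of 14 markers lower in female flowers at stages 4 and 5, and their part in the result was not tested. CPK20 (LITCHI019021.m1), the other kinase known from Arabidopsis pollen, averaged 1.27 FPKM in F5 and 2.19 FPKM in M5. Its log2 fold change of -1.26 was called in edgeR, but not without the second F5 or the third M5 library (edgeR FDR 0.014 and 0.018), nor with library-total scaling (-0.78) or limma-trend (-0.48 and -0.72).

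Another of several tested genes named CPK4 (LITCHI011639.m1) had 2.73, 1.43 and 2.53 FPKM in F5 and 5.81, 3.61 and 6.62 FPKM in M5. Its log2 fold change was -1.73 (SE 0.27, edgeR FDR 8.0e-06), and the call ended with limma-trend (+1), at -0.97. The sexes overlapped in none of the replicates of stage 4 or stage 5. Among the CDPK-related kinases, the strongest, CRK5 (LITCHI006812.m1), averaged 29.8 FPKM in F5 and 12.8 FPKM in M5, a log2 fold change of 0.73 (SE 0.07) that was under the 2-fold threshold and passed it with library-total scaling (1.22). A second CRK5 gene (LITCHI001674.m1) had 6.41, 6.04 and 6.71 FPKM in F5 and 1.47, 0.916 and 1.04 FPKM in M5, with no overlap (log2 fold change 2.01, SE 0.14, edgeR FDR 5.0e-11). It had 14.2, 15.7 and 15.8 FPKM in F1 and 18.1, 18.4 and 19.5 FPKM in M1, and between stages 1 and 5 it fell in both sexes, by 1.34 (SE 0.14) in female and 3.70 (SE 0.15) in male flowers on the log2 scale. CRK4 (LITCHI012306.m1) was listed in every library except those of stage 2, where it had 0 counts in F2 and M2, at least 73.5-fold lower than F1 and at least 175-fold lower than M1, with 3 counts over a group as the floor.

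**Figure D2:**
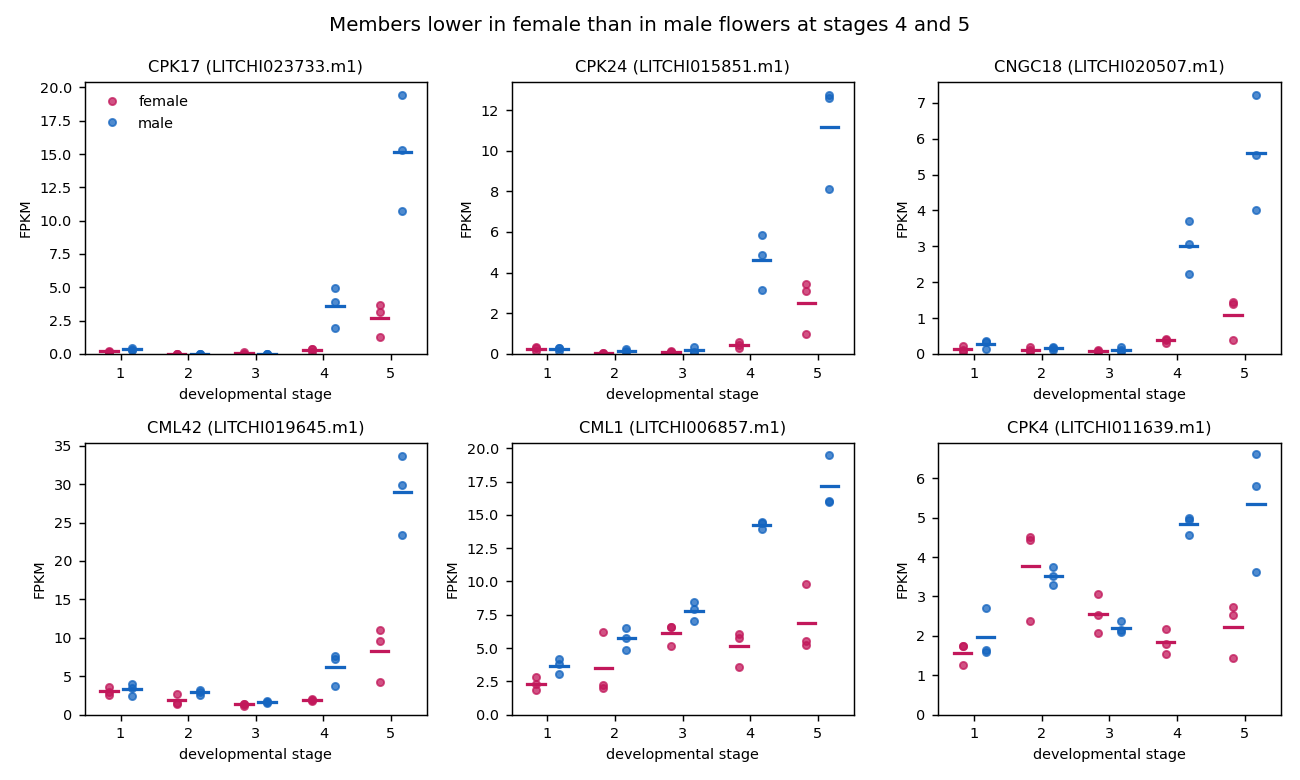
FPKM per library of 6 members that were lower in female than in male flowers at stages 4 and 5, by developmental stage, with female flowers in red to the left and male flowers in blue to the right; points are libraries and lines are means of 3. CPK17 (LITCHI023733.m1), CPK24 and CNGC18 stayed below 0.5 FPKM in every bud library and were highest in M5.

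Calmodulin and calmodulin-like proteins, the small calcium sensors, comprised 17 members with 14 tested, and the CML calcium-binding proteins 6 more, all tested. The most abundant calmodulin gene (LITCHI023830.m1) had 122, 130 and 140 FPKM in F5 and 101, 91.0 and 89.1 FPKM in M5, and stayed between 89.1 and 158 FPKM in all 30 libraries. Its log2 fold change at stage 5 was 0.00 (SE 0.07) and it was called in no comparison. At stage 5, 1 calmodulin-like gene was higher and 3 were lower in female flowers, and of the CML group 0 were higher and 1 was lower.

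CML42 (LITCHI019645.m1) had 9.52, 4.19 and 11 FPKM in F5 and 29.9, 23.3 and 33.7 FPKM in M5. The M5 values were all above those of every other group, and the log2 fold change was -2.29 (SE 0.31, edgeR FDR 1.2e-06). It was also one of the few members called between stages 5 and 4 in both sexes, higher at stage 5 by 2.11 (SE 0.32) in female and 2.46 (SE 0.32) in male flowers. CML1 (LITCHI006857.m1), annotated as a calmodulin-like protein, had 9.80, 5.50 and 5.24 FPKM in F5 and 16, 19.5 and 16.1 FPKM in M5 (log2 fold change -1.78, SE 0.33). A CML3 gene with low levels (LITCHI021613.m1) averaged 0.443 FPKM in F5 and 2.41 FPKM in M5 and lost its call without any 1 of 5 stage 5 libraries (edgeR FDR 0.0103 to 0.0343) and with library-total scaling (edgeR FDR 0.016). Another CML3 entry (LITCHI017316.m1) had 14.8, 13.2 and 15.1 FPKM in F5 and 1.77, 1.63 and 5.01 FPKM in M5 (log2 fold change 1.88, SE 0.41). It shares its locus with a second entry, and with the counts of both summed the log2 fold change was -1.01.

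The most abundant genes of the CML group, CML37 and CML38, fell as flowers opened in both sexes. CML37 (LITCHI009838.m1) had 80.5, 34.6 and 32.3 FPKM in F5 and 246, 237 and 252 FPKM in F1 (log2 fold change -2.38, SE 0.25, edgeR FDR 1.1e-07). In male flowers it had 40.4, 37.7 and 38.1 FPKM in M5 and 279, 271 and 291 FPKM in M1 (log2 fold change -2.53, SE 0.25). Stage 5 and stage 1 did not overlap in either sex, and the first F5 library was more than 2-fold above the other F5 libraries. CML38 (LITCHI022607.m1) fell in the same comparisons by 2.77 (SE 0.34) in female and 3.22 (SE 0.35) in male flowers on the log2 scale. Both genes dropped at the step from stage 3 to stage 4, CML37 by 2.18 (SE 0.25) in female and 2.53 (SE 0.25) in male flowers. The summed level of the CML group was 69.0 ± 35.6 FPKM in F5 and 319 ± 13.7 FPKM in F1, and 78.4 ± 6.11 FPKM in M5 and 391 ± 19.8 FPKM in M1 (SD, n = 3 each). A pair of calmodulin-like sensors rose instead. CML5 (LITCHI011033.m1) had 12.4, 10.2 and 9.66 FPKM in F5 and 1.09, 0.958 and 0.648 FPKM in F1 (log2 fold change 3.50, SE 0.23), and it rose by 3.31 (SE 0.22) in male flowers. CML8 (LITCHI026158.m1) had 7.79, 3.73 and 6.05 FPKM in F5 and 0.296, 0.624 and 0.571 FPKM in F1 (log2 fold change 3.43, SE 0.55). Neither was called between the sexes at stage 5, with log2 fold changes of -0.07 (SE 0.20) for CML5 and 0.06 (SE 0.49) for CML8. Another gene named CML5 (LITCHI015895.m1) was more abundant in buds, with means of 79.15 FPKM in F1 and 58.4 FPKM in F2. The rise described here belongs to LITCHI011033.m1 alone.

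**Figure D3:**
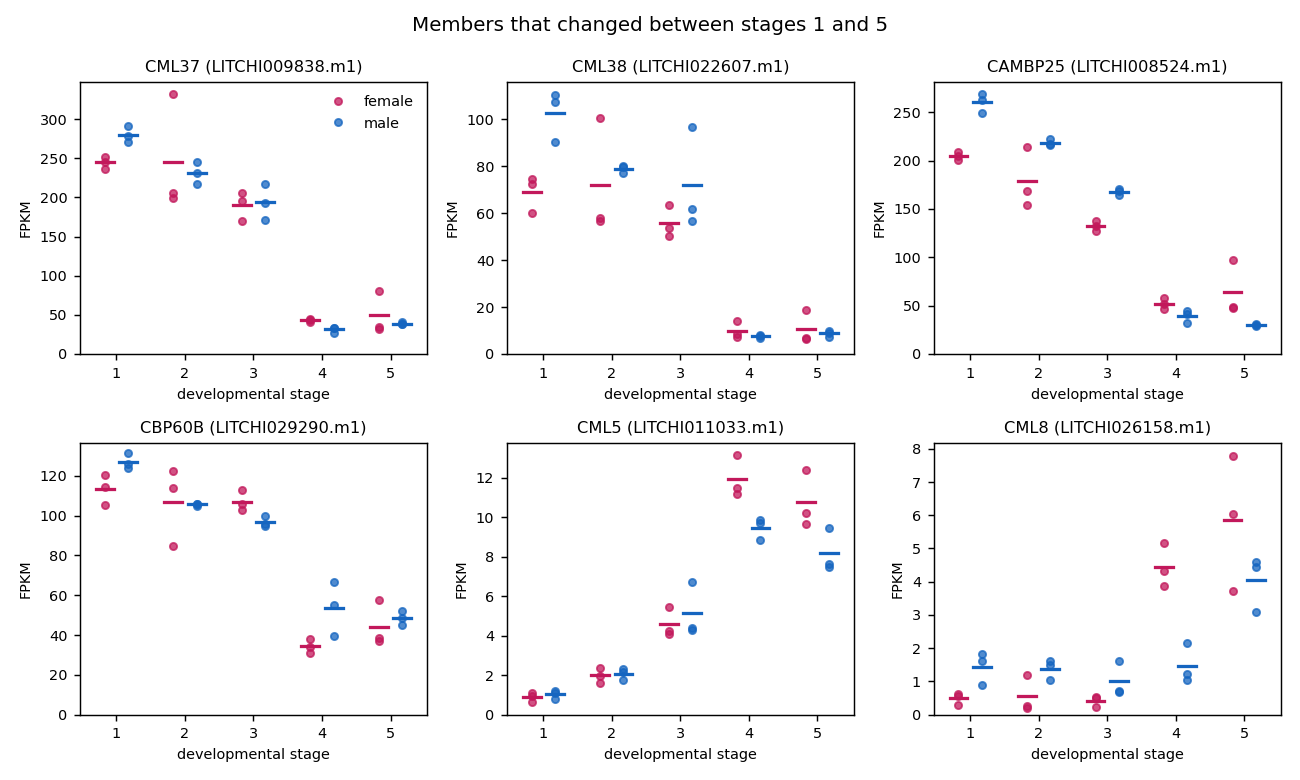
FPKM per library of 6 members that changed between stages 1 and 5, with female flowers in red to the left and male flowers in blue to the right at each stage; points are libraries and lines are means of 3. CML37, CML38, CAMBP25 and CBP60B were lower from stage 4 on, whereas CML5 (LITCHI011033.m1) and CML8 were higher.

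Calmodulin-binding proteins, the targets on which calmodulin acts, comprised 23 members, all tested. At stage 5, 2 were higher in female flowers and 0 lower, both CBP60C genes of low level: LITCHI004205.m1 had 1.14, 1.33 and 2.2 FPKM in F5 and 0.347, 0.230 and 0.352 FPKM in M5 (log2 fold change 1.82, SE 0.30). In Arabidopsis, CBP60 proteins include regulators of defence genes. Between stages 5 and 1, 0 members were higher and 4 lower in female flowers, and 1 was higher and 7 were lower in male flowers. Over all tested genes, 14.8% were called in female flowers (7.44% higher and 7.31% lower) and 36.8% in male flowers (15.3% higher and 21.5% lower). CAMBP25 (LITCHI008524.m1), the most abundant, had 97.4, 47.4 and 48.4 FPKM in F5 and 205, 200.3 and 209 FPKM in F1 (log2 fold change -1.73, SE 0.20). In male flowers it had 30.7, 29.8 and 29.2 FPKM in M5 and 249, 269 and 263 FPKM in M1 (log2 fold change -2.79, SE 0.21), and the fall was larger in male than in female flowers by 1.06 on the log2 scale (SE 0.27, edgeR FDR 0.0028). CBP60B (LITCHI029290.m1) fell by 1.43 (SE 0.17) in female flowers and by 1.05 (SE 0.17) in male flowers, the second close enough to the 2-fold threshold that leaving out any of 6 male libraries ended the call (log2 fold change -0.93 to -0.98). CBP60A (LITCHI022313.m1) averaged 63.6 FPKM in F5 and 47.3 FPKM in M5 and was called in no comparison.

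Calcium-transporting ATPases, the pumps that restore low cytosolic calcium, were the largest class, with 58 members and 46 tested. At stage 5, 4 were higher and 6 lower in female flowers. Among the lower ones were 2 abundant entries with neighbouring identifiers, named after the plasma membrane pumps ACA8 and ACA10. Both entries were short, with 6274 counts at 44.5 FPKM and 4069 counts at 40.8 FPKM in F2. An ACA2 gene (LITCHI007050.m1) had 8636 counts at 7.99 FPKM there. Whether neighbouring entries are parts of 1 gene was not tested, so each value is uncertain. ACA8 (LITCHI016449.m1) had 45.2, 39.5 and 34.8 FPKM in F5 and 71.5, 70.2 and 73.3 FPKM in M5, with no overlap (log2 fold change -1.31, SE 0.11, edgeR FDR 2.9e-10). ACA10 (LITCHI016451.m1) averaged 31.3 FPKM in F5 and 49.9 FPKM in M5 (log2 fold change -1.14, SE 0.11). Both kept their direction but fell below the 2-fold threshold with library-total scaling (-0.85 and -0.67), and ACA10 also without the third F5 library (-0.996). A weaker ACA8 gene between them (LITCHI016450.m1, 0.512 FPKM in F5 and 1.11 FPKM in M5) lost its call without any of 3 stage 5 libraries (edgeR FDR 0.024 to 0.034), with library-total scaling (edgeR FDR 0.042), with only the groups compared (edgeR FDR 0.054) and with limma-trend (+1).

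Among the pumps higher in female flowers, another ACA10 gene (LITCHI003221.m1) had 1.60, 1.78 and 3.07 FPKM in F5 and 0.231, 0 and 0.0683 FPKM in M5 (log2 fold change 3.79, SE 0.65). ACA12 (newGene_3882) had 2.51, 1.77 and 2.13 FPKM in F5 and 0.257, 0.390 and 0.303 FPKM in M5 (log2 fold change 2.26, SE 0.32). The sexes did not overlap in either gene, and ACA12 had its highest mean at stage 2 in both sexes, with 16, 18.5 and 8.75 FPKM in F2 and 15.0, 17.3 and 9.57 FPKM in M2. The same stage was the peak of the tapetum and young anther markers, which summed to 396 FPKM in F2 and 348 FPKM in M2, and their part in the ACA12 peak was not tested. ACA4 (newGene_4182) averaged 4.77 FPKM in F5 and 0.870 FPKM in M5 (log2 fold change 1.74, SE 0.32). An ECA1 entry (LITCHI024810.m3, of 3 entries at its locus) had 61.7, 25.5 and 8.88 FPKM in F5 and 166, 109 and 47.0 FPKM in M5. These ranges overlapped, and the call (log2 fold change -2.18, SE 0.62) was lost without either the second or the third F5 or the first M5 library, with library-total scaling (edgeR FDR 0.016) and with only the groups compared (edgeR FDR 0.050). The 8 entries of another locus carried the ACA1 name, and there the called entry (LITCHI010833.m17, log2 fold change -2.0, SE 0.43) stood beside a summed count of the locus that was not called (-0.28). Its most abundant entry (LITCHI010833.m11) averaged 40.4 FPKM in F5 and 26.2 FPKM in M5 and was not called at stage 5. ACA9 was the name of 7 entries, and its Arabidopsis namesake works in pollen. The most abundant of them (LITCHI031490.m1) had 65.8, 55.3 and 53.4 FPKM in F5 and 30.4, 33.9 and 38.5 FPKM in M5, a log2 fold change of 0.29 (SE 0.13) that was not called. It was at 44.0 FPKM or more in all female libraries of every stage and was called in no comparison. This entry was also short, with 5978 counts at 76.0 FPKM in F2. Its neighbours were named ACA5 (LITCHI031489.m1) and ACA9 (LITCHI031491.m1). Whether it is the counterpart of the pollen pump was not tested.

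Cyclic nucleotide-gated channels, with 47 members and 36 tested, held the largest called differences in favour of female flowers. At stage 5, 10 were higher and 5 lower, and at stage 4, 3 were higher and 5 lower. CNGC11 (LITCHI003603.m1) had 32.7, 47.4 and 47.9 FPKM in F5 and 2.04, 1.76 and 1.99 FPKM in M5. Every F5 value exceeded every M5 value by more than 10-fold, and the log2 fold change was 3.98 (SE 0.18, edgeR FDR 9.7e-14). It was also the 1 member called at stage 3, with 20.9, 26.2 and 18.9 FPKM in F3 and 11.3, 8.64 and 7.57 FPKM in M3 (log2 fold change 1.20, SE 0.16, edgeR FDR 1.2e-04). The stage 3 call was lost when only the groups compared entered the fit (edgeR FDR 0.011). In buds of stage 1 the gene had 11.7, 12.3 and 11.1 FPKM in F1 and 5.93, 6.68 and 7.03 FPKM in M1, so that the sexes did not overlap there either. It then rose in female flowers, by 1.78 (SE 0.17) between stages 1 and 5, and fell in male flowers, by 1.43 (SE 0.17), both on the log2 scale. In Arabidopsis, CNGC2, CNGC4, CNGC11 and CNGC12 are known from defence signalling.

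CNGC4 (LITCHI013265.m1) had 38.4, 39.5 and 28.6 FPKM in F5 and 7.72, 8.35 and 7.51 FPKM in M5 (log2 fold change 1.71, SE 0.10, edgeR FDR 2.6e-12). The sexes did not overlap at stage 4 or 5, and the gene rose by 1.70 (SE 0.10) in female flowers and had a log2 fold change of -0.20 (SE 0.10) in male flowers. Of the carpel and ovule markers, AGL11 was also higher and CRABS CLAW lower in female flowers at stage 5. The leaf and green tissue markers were also mostly higher in female flowers at stage 5, summing to 933.1 to 1385 FPKM in F5 and 496.9 to 540.6 FPKM in M5, and the part of either list in these differences was not tested. The 2 genes named CNGC2 went opposite ways between the sexes. The weaker one (LITCHI019432.m1) had 1.59, 1.76 and 2.12 FPKM in F5 and 0.224, 0.216 and 0.218 FPKM in M5 (log2 fold change 2.55, SE 0.24). The stronger one (LITCHI019429.m1), the most abundant channel, had 102, 112 and 91.8 FPKM in F5 and 154, 158 and 162 FPKM in M5 (log2 fold change -1.10, SE 0.09). Neither pair of groups overlapped, but the second call ended without the third F5 library (-0.995) and with library-total scaling (-0.63). CNGC18 (LITCHI020507.m1), the pollen-type channel, had 1.44, 0.387 and 1.39 FPKM in F5 and 5.56, 4.00 and 7.21 FPKM in M5 (log2 fold change -2.85, SE 0.51, edgeR FDR 4.9e-05). It followed CPK17 (LITCHI023733.m1) and CPK24: the second F5 library was again the lowest of its group. CNGC18 rose by 2.85 (SE 0.54) in female and 4.62 (SE 0.56) in male flowers between stages 1 and 5.

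**Figure D4:**
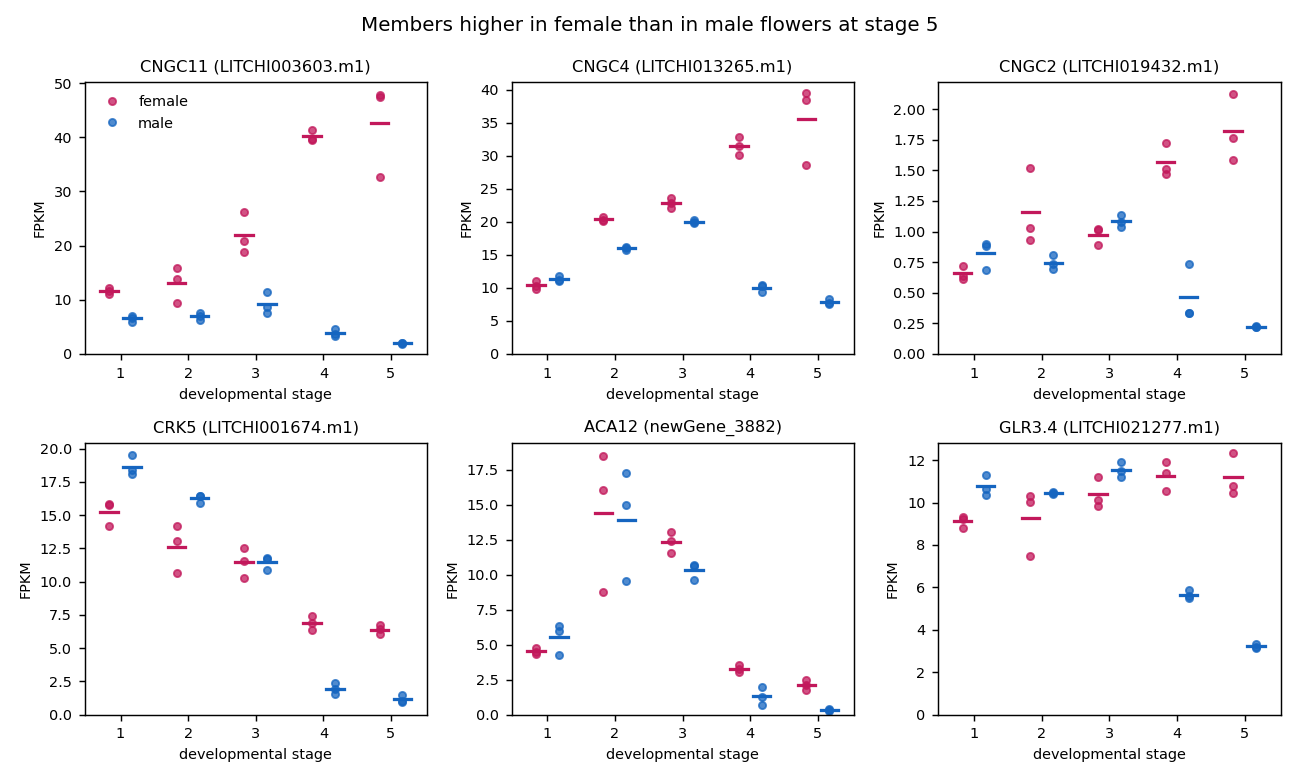
FPKM per library of 6 members that were higher in female than in male flowers at stage 5, by developmental stage, with female flowers in red to the left and male flowers in blue to the right; points are libraries and lines are means of 3. CNGC11 and CNGC4 reached their highest values in late female flowers, whereas CRK5 and ACA12 were higher in buds and dropped further in male flowers.

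The name CNGC1 was carried by 40 entries, of which 29 were tested, many with neighbouring identifiers, so reads could be split among near-identical copies and each value is uncertain. Between stages 5 and 1, 0 of the 29 were higher and 11 lower in female flowers, and 1 was higher and 15 were lower in male flowers. Of all tested genes, 14.8% were called in female flowers (7.31% lower) and 36.8% in male flowers (21.5% lower). Entries that share reads would not be separate observations, so the 29 were not compared with these shares. LITCHI009568.m1 had 0.464, 0.540 and 0.295 FPKM in F5 and 4.83, 5.53 and 4.48 FPKM in F1 (log2 fold change -3.56, SE 0.73), and 0.201, 0 and 0 FPKM in M5 and 4.95, 5.18 and 4.51 FPKM in M1 (log2 fold change -5.91, SE 0.86). LITCHI009604.m1 fell by 3.40 (SE 0.33) in female flowers and newGene_4349 by 4.13 (SE 0.57) in male flowers, and LITCHI009581.m1 had 0 counts in M5, at least 12.5-fold lower than M1. In contrast to these, newGene_3867 had 2.46, 4.46 and 4.58 FPKM in F5 and 0.105, 0.0508 and 0.126 FPKM in M5, without overlap (log2 fold change 4.59, SE 0.40, edgeR FDR 9.8e-10). It dropped between stages 4 and 5 of male flowers by 3.86 (SE 0.39) on the log2 scale.

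Glutamate receptor-like channels, named after the animal receptors they resemble, had 51 members, of which 22 were tested and 12 had no count. At stage 5, 3 were higher and 2 lower in female flowers. All 3 of the higher ones belonged to the GLR3 group, which in Arabidopsis includes the channels that carry wound signals. GLR3.4 (LITCHI021277.m1) had 10.5, 10.8 and 12.3 FPKM in F5 and 3.35, 3.12 and 3.20 FPKM in M5 (log2 fold change 1.32, SE 0.08, edgeR FDR 2.5e-12). Of the GLR3.6 genes, LITCHI006313.m1 had a log2 fold change of 1.43 (SE 0.18) and LITCHI006314.m1 of 1.11 (SE 0.13), the second falling to 0.95 without the second M5 library. A further GLR3.6 gene (LITCHI006315.m1) was not among the 3 called higher. At stage 2 it averaged 8.59 FPKM in F2 and 13.5 FPKM in M2, a log2 fold change of -0.66 (SE 0.11) that was under the 2-fold threshold. The most abundant receptor, GLR3.3 (LITCHI009937.m1), had 22.1, 24.4 and 24.3 FPKM in F5 and 17.1, 14.6 and 15.5 FPKM in M5 and was not called between the sexes (log2 fold change 0.11, SE 0.10). Between stages 1 and 5 its log2 fold change was 0.97 (SE 0.10) in female flowers, under the threshold, and it rose by 1.09 (SE 0.10) in male flowers. GLR2.8 (LITCHI013031.m1) had 0 counts in F5 and 45 in M5, at least 26.5-fold lower in female flowers, a call that DESeq2 did not make (DESeq2 adjusted p = 0.33). GLR2.5 (LITCHI013034.m1) had 0 counts in F5 and 191 in F1, at least 81.8-fold lower.

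Opening of the flower was the step with the most changes. Between stages 4 and 3, 7 members were higher and 35 lower in female flowers, beside 12.1% of all genes called (4.56% higher and 7.51% lower), and 14 were higher and 32 lower in male flowers, beside 20.4% (7.73% higher and 12.6% lower). The steps within the buds and after opening changed few members. Between stages 2 and 1, 5 were higher and 3 lower in female flowers, beside 3% of all genes called (2.33% higher and 0.675% lower), and 2 were higher and 2 lower in male flowers, beside 2.66% (1.69% and 0.966%). Between stages 3 and 2, 2 were higher and 0 lower in female flowers, beside 2.51% (1.53% and 0.977%), and 2 were higher and 1 was lower in male flowers, beside 6.23% (3.76% and 2.47%). Between stages 5 and 4, 3 were higher and 1 was lower in female flowers, beside 1.22% (0.75% and 0.467%), and 4 were higher and 6 lower in male flowers, beside 10.6% (3.63% and 7%), which became 2 and 16 with library-total scaling.

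From the first bud stage to full bloom, 16 members were higher and 36 lower at stage 5 than at stage 1 in female flowers, or 28.7% of those tested, beside 14.8% of all genes (7.44% higher and 7.31% lower). In male flowers, 26 were higher and 56 lower, or 45.3%, beside 36.8% of all genes (15.3% higher and 21.5% lower), and with library-total scaling 14 were higher and 63 lower. The median log2 fold change of the members was -0.17 in female and -0.38 in male flowers, against 0.00 and -0.08 over all tested genes. Of the 17 leaf and green tissue markers, 1 was higher and 1 lower at stage 5 in female flowers and 2 were higher and 15 lower in male flowers, and their part in the result was not tested. Calls from female and male flowers were combined for the members only, not for all tested genes. In both sexes 11 members rose and 33 fell, and 2 were called in opposite directions, CNGC11 and the weaker CNGC2 gene. Another 15 rose and 21 fell in male flowers without being called in female flowers, which by itself does not show that the sexes differ. That difference was tested directly, and the change between stages 1 and 5 was called as more positive in female flowers for 18 members and as more negative for 10, beside 22.6% of all genes called (14.7% and 7.84%). Library-total scaling made this 39 and 2.

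By class, the ATPases had 1 member higher and 11 lower at stage 5 than at stage 1 in female flowers, and 5 higher and 17 lower in male flowers. For the channels the counts were 4 higher and 11 lower in female flowers, and 3 higher and 17 lower in male flowers. Of the 28 CPK kinases tested, 4 were higher and 1 was lower in female flowers, and 5 were higher and 4 lower in male flowers, while the level summed over all 36 CPK members was 382 ± 21.1 FPKM in F5 and 427 ± 3.96 FPKM in F1, and 361 ± 9.96 FPKM in M5 and 462 ± 2.02 FPKM in M1 (SD, n = 3 each). No test compared these classes with each other, or with the 14.8% of all tested genes called in female and 36.8% in male flowers. The FPKM sums of this paragraph lack the scaling factors used in the tests, which were 0.77 to 0.81 in M5 and 0.99 to 1.01 in M1. Those factors would raise the M5 sums beside the M1 sums, and the differences between sums were not tested. Summed over the cyclic nucleotide-gated channel genes the level was 242 ± 13.2 FPKM in F5 and 173 ± 9.28 FPKM in F1, and 208 ± 3.86 FPKM in M5 and 149 ± 3.60 FPKM in M1 (SD, n = 3 each). The stronger CNGC2 gene alone gave 158 FPKM of the M5 sum.

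**Figure D5:**
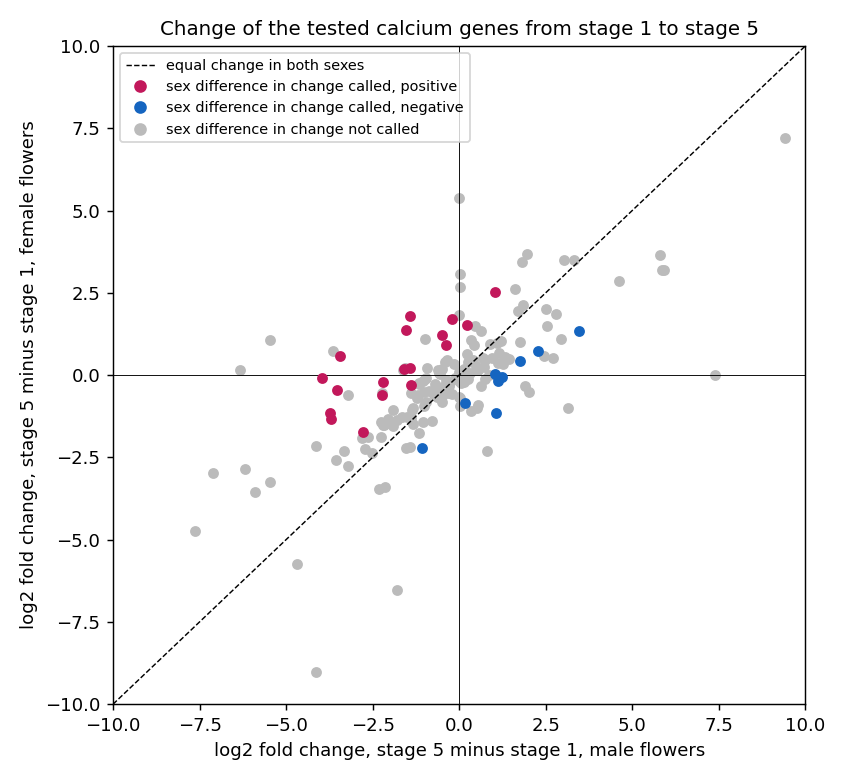
Log2 fold change between stages 5 and 1 of the 181 tested members, male flowers on the horizontal and female flowers on the vertical axis, each point a gene. Red points are the 18 members whose change was called as more positive in female flowers, blue points the 10 called as more negative, and the dashed line marks an equal change in both sexes.

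Calcium genes outside the members, 116 with 108 tested, were counted by class for the rest of the pathway, such as the calcineurin B-like sensors and their CIPK kinases, annexins, exchangers and respiratory burst oxidases. At stage 5, 13 were higher and 23 lower in female flowers, beside 29.2% of all genes called. At stage 4, 6 were higher and 16 lower, beside 16.9% of all genes called. The CIPK kinases, which work with calcineurin B-like sensors, had 1 of 24 higher and 8 lower at stage 5. CIPK2 (LITCHI027467.m1) averaged 11.8 ± 3.56 FPKM in F5 and 250 ± 33.5 FPKM in M5 (SD, n = 3 each), with a log2 fold change of -4.87, an SE of 0.30 and an edgeR FDR of 5.4e-12. RBOHD (LITCHI030338.m2), an oxidase that makes superoxide at the plasma membrane, averaged 2.53 ± 0.822 FPKM in F5 and 0.0265 ± 0.0330 FPKM in M5. Annexin ANN5 (LITCHI005953.m1) averaged 0.0782 FPKM in F5 and 0.868 FPKM in M5. An entry of the exchanger CAX3 (LITCHI025130.m7) averaged 3.96 ± 2.92 FPKM in F5 (SD, n = 3) and had 0 FPKM in all M5 libraries. The RBOHD and CAX3 values each belong to 1 entry of a locus. Values summed over those loci are not given, so the locus as a whole may differ.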

How the data were processed

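The deposited table holds counts per gene and library beside FPKM, which the authors computed from fragment counts, transcript length and library depth. The submitters' processing notes name HISAT2 2.0.4 and StringTie, and the study's methods name Trimmomatic, removal of ribosomal reads and Cufflinks. No positions are stated, because the genome build was not given in the sources used here. The table also holds the authors' adjusted p-values and log2 fold changes from DESeq2 for pairs of groups, which were not used. Every per-library column belonged to 1 of the 30 libraries, and groups were taken from the labels.

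Counts were fitted with edgeR 4.0.16 (glmQLFit, glmQLFTest) in R 4.3.3, with TMM scaling and a mean for each group. filterByExpr kept 27854 of 37234 genes, and p-values were adjusted over all of them by Benjamini-Hochberg. A call needed an FDR below 0.01 and at least a 2-fold change. The error of a log2 fold change is its size divided by the square root of the F statistic. FPKM values are not TMM-scaled, so their ratios can differ from the fold changes. Scripts were tested on simulated data. Where a group had 0 counts, folds are bounds against 3 counts over the group, which covers counting error only. The study's methods describe triplicate samples from sides of the tree that face different directions. Neither they nor the labels say that replicates came from separate trees, so p-values measure the spread among these samples. Without stated strand, overlapping and antisense genes cannot be told apart.

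The members and lists were chosen with earlier results of these data known. Named genes were the 10 largest called changes in each direction between the sexes at stage 5 and 4 at stage 4 with at least 1 FPKM in the higher group, all calls at stages 1 to 3, the 3 largest in each direction between stages 5 and 1 in each sex, the 4 largest in each direction of the difference between the sexes, the most abundant member of each class, and the 3 most abundant members never called. ACA8 (LITCHI016449.m1), ACA10 (LITCHI016451.m1), CPK17 (LITCHI022947.m1 and LITCHI009269.m1), CPK20, CML5 (LITCHI015895.m1), GLR3.4, GLR3.6, GLR2.8, CML38, CBP60B and CRK4 were described after their values were seen. Alternatives were DESeq2 1.42.0, library-total scaling, no filter, a filter of 1 CPM in 3 libraries, only the groups compared, a replicate block, limma-trend 3.58.1 on log2(FPKM + 1) and log2(FPKM + 0.1), counts summed over a locus and each library left out. Matching the names with case ignored, which gives 335 genes, was added after seeing the data.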

Additional observations from a re-analysis of the deposited data

Results flagged for a closer look

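The change between stages 1 and 5 differed between female and male flowers for 28 members, by an interaction test in edgeR at an FDR below 0.01 and a difference of at least 2-fold. Of the genes named for this test, the change was more positive in female flowers, on the log2 scale, for the CNGC1 gene newGene_3867 by 4.02 (edgeR FDR 7.2e-07), for ACA10 (LITCHI003221.m1) by 3.87 (edgeR FDR 5.8e-04), for CNGC11 by 3.21 (edgeR FDR 4.5e-10) and for the CNGC1 gene LITCHI009526.m1 by 3.08 (edgeR FDR 0.0076). The last one averaged 0.393 FPKM in F5 and 0.0398 FPKM in M5 and lost its call without any 1 of 15 libraries (edgeR FDR 0.0102 to 0.0206). The difference was negative for ACA8 (LITCHI016450.m1) at -2.21 (edgeR FDR 0.0041), CML42 at -2.11 (edgeR FDR 3.3e-04), CNGC2 (LITCHI019429.m1) at -1.53 (edgeR FDR 1.2e-09) and CPK4 (LITCHI011639.m1) at -1.33 (edgeR FDR 0.0057). ACA8 lost its call without any 1 of 5 libraries (edgeR FDR 0.0101 to 0.0152), and CPK4 without any 1 of 7 (edgeR FDR 0.0103 to 0.0204). Both calls also ended with library-total scaling (-1.81 for ACA8, edgeR FDR 0.0145, and -0.93 for CPK4, edgeR FDR 0.050), with only the groups compared and with limma-trend (+1), and that of CPK4 with limma-trend (+0.1). The call of LITCHI009526.m1 ended with only the groups compared (edgeR FDR 0.020) and with limma-trend (+1). Library-total scaling left 2 negative calls among the members, beside 10 with TMM scaling. CPK17 (LITCHI023733.m1), CPK24 and CNGC18, which were lower in female flowers at stages 4 and 5, had differences in change of -2.14, -2.69 and -1.77 that did not pass the threshold.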

How the results depend on the processing

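At both late stages and over the change from stage 1 to stage 5, the counts of called members stayed within 1.5 times under most alternatives. The exceptions were 14 (limma-trend, +1) and 41 (case ignored) at stage 4 between the sexes, 28 (limma-trend, +1) at stage 5, and 43 (limma-trend, +0.1) for the difference between the sexes in the change from stage 1 to stage 5. Small counts moved more. Between the sexes at stage 1, calls were 2 with only the groups compared, 4 with DESeq2, 1 with counts summed over a locus, 2 with limma-trend (+0.1) and 1 with case ignored. At stage 3 they were 0, 3, 2 and 5 in the first 4 of these settings. In female flowers, the step to stage 2 had 2 with only the groups compared and 3 with limma-trend (+1), the step to stage 3 had 0 with only the groups compared, 4 with DESeq2, 5 with limma-trend (+0.1) and 4 with case ignored, and the step to stage 5 had 0 with only the groups compared and 7 with DESeq2. In male flowers, the step to stage 2 had 7 with limma-trend (+0.1) and 7 with case ignored, the step to stage 3 had 6 with only the groups compared, 8 with DESeq2, 5 summed over a locus, 6 with limma-trend (+0.1) and 7 with case ignored, and the step to stage 5 had 18 with library-total scaling, 17 with DESeq2, 19 with limma-trend (+0.1) and 16 with case ignored. The cause was not tested.

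Leaving out each library in turn gave 0 to 1, 0 to 3, 1 to 2, 21 to 36 and 35 to 47 calls between the sexes at stages 1 to 5, in that order. For stage 5 against stage 1 the range was 48 to 57 in female and 72 to 81 in male flowers, and 23 to 33 for the difference between the sexes. The steps to stages 2, 3, 4 and 5 gave 4 to 8, 2 to 6, 37 to 45 and 1 to 7 in female flowers, and 3 to 4, 2 to 5, 35 to 48 and 7 to 14 in male flowers. Counts moved over 1.5 times without single libraries: at stage 1, 1 without M1-2, M2-1, M4-1 or M4-2; at stage 2, 3 without F2-3; at stage 3, 2 without M4-3; in female steps, 4 without F1-2 and 5 without F1-1, F1-3 or F2-2 (to stage 2), 6 without F2-3 (to stage 3), 7 without F2-1, 1 without any F4 library and 2 without F5-1 (to stage 5); in male flowers, 5 without F2-3 (to stage 3).

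Of 66 named genes and comparisons with a call, 45 kept it under every alternative. With a replicate block no named call changed, and all counts of called members stayed within 1.5 times (44 became 43 at stage 5 between the sexes). Deviations of same-numbered libraries did not go together (mean r -0.0001 over 135 pairs, none over 0.1), so no shift shared by replicate number was seen. These correlations cannot tell whether same-numbered samples came from the same tree or side of a tree. At stage 5 the sign between the sexes turned for CML3 (LITCHI017316.m1, -1.01 summed over its locus), and for 5 uncalled genes: CPK4 (LITCHI002195.m1, -0.41; 0.063 with library-total scaling, 0.059 and 0.060 with limma-trend), calmodulin (LITCHI023830.m1, 0.0036; -0.0088 without a filter, -0.035 with the stricter one, -0.052 with DESeq2, -0.022 summed over a locus, -0.034 to 0.014 over left-out libraries), CML37 (-0.11; 0.34 with library-total scaling, 0.21 with both limma-trend fits, -0.73 to 0.15 over left-out libraries), ACA1 (LITCHI010833.m11, 0.15; -0.28 summed over its locus) and CBP60A (-0.04; 0.43 with library-total scaling, 0.031 with only the groups compared, 0.42 and 0.43 with limma-trend, -0.13 to 0.0014 over left-out libraries). With 3 replicates a group, members near 0 counts have the least reliable folds.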
